A study of Homo sapiens with 40 samples.

Results

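The gene UGT2B17 had a low signal in 2 of the 20 cultures of this study. All were LNCaP, an established line from a human prostate cancer whose growth depends on androgen. The cultures are those labelled clone 1 replicate 1, an MDV3100-resistant clone, and D+R- replicate 2, a control line labelled sensitive to MDV3100. They were chosen because their UGT2B17 signal in DMSO lay under 100 and because their whole profiles matched each other best. They hold 4 of 40 arrays. The culture labelled clone 1 replicate 1 is called the clone 1 culture below and the culture labelled D+R- replicate 2 the D+R- culture, and values are given in that order. Each was set against 18 other cultures. These are 13 of resistant clones 1, 9, 10, 14, 15, 19 and 24, and 5 of the control lines D+E-, D+R- and M+R-. The labels do not explain the names of the control lines. All lines were grown in RPMI-1640 with fetal calf serum, seeded 3 days ahead, and each culture gave 1 array after 24 h in 10 µM MDV3100 and 1 array after 24 h in 0.1% DMSO, the solvent. MDV3100, or enzalutamide, is an antiandrogen, a drug that blocks androgen action. Each clone stands for 1 resistant line. Nothing in the labels says that replicate 1 and replicate 2 were separate cultures, so the tests may treat repeats as independent. The spread behind the p-values is that among cultures of several lines and both replicate numbers.

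In prostate cells the androgens testosterone and dihydrotestosterone switch on genes such as KLK3, which encodes prostate-specific antigen. UGT2B17, UGT2B15 and UGT2B28 encode enzymes of the endoplasmic reticulum that attach glucuronic acid to steroids, which makes them soluble and ends their action. UGT2B17 and UGT2B15 are the main ones for androgens in prostate cells, and androgen itself lowers their expression in LNCaP cells. Antiandrogens such as MDV3100 do the opposite: genes that androgen induces go down and genes that it represses go up.

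Both cultures stood apart from the other replicate of their own label, which was not particular to them. For none of the 20 cultures was the other replicate of its label the best match by whole profile. Whether a label is wrong cannot be settled from these data, so comparisons of the D+R- culture with the other control cultures rest on its label as given. With each gene centred on its mean over 20 cultures, their profiles of 11853 genes correlated with each other at r = 0.748. The next best match of the clone 1 culture was clone 15 replicate 1 at r = 0.543, and that of the D+R- culture was M+R- replicate 2 at r = 0.579. The clone 1 culture correlated with clone 1 replicate 2 at r = 0.093, and the D+R- culture with D+R- replicate 1 at r = -0.328. These values helped to choose the cultures and are a description across genes, which are not replicates. With each gene centred within its replicate set instead, the r between the cultures was 0.555, and the best match of the D+R- culture was then M+R- replicate 2 at r = 0.761. The number of genes that differed at least 2-fold was 21 between the cultures, the fewest of all 100 pairs that join a replicate 1 and a replicate 2 culture. Pairs with the same label differed in 198 to 1954 genes (median 992.5). Those of clone 1 at 448 and D+R- at 877 lay below that median.

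Luminal prostate identity was present in both. The summed signal of 7 luminal markers (KLK3, KLK2, HOXB13, FOLH1, KRT8, KRT18 and TMPRSS2) was 11907.9 to 13921.6 in the 4 arrays and 5968.7 to 16131.4 in the 36 others. Summed signals of the other cell types' markers lay within the others' range, at 8.3 to 22.6 against 1.1 to 29.9 for basal, 4.6 to 15.8 against 1.3 to 18 for immune and 11.2 to 23.3 against 11.1 to 129.9 for endothelial markers. They were 114.0 to 153.3 against 61.9 to 346.7 for neuroendocrine and 182.1 to 264.4 against 112.8 to 766.2 for mesenchymal markers. The basal keratins KRT5 and KRT14, the leukocyte genes PTPRC and CD74, PECAM1 and CHGA lay below the filter on low signals, and TP63 is not analysed here. The ratio of 3′ to 5′ signal of the actin probe sets, a measure of RNA integrity, was 4.27 and 3.41 under MDV3100 against 2.59 to 6.59 in the others, and 3.39 and 3.36 in DMSO against 2.69 to 4.77.

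The 3 androgen-inactivating enzymes were low together. UGT2B17 read 33.1 and 73.3 under MDV3100, against 376.1 to 1643.1 (median 957.25) in the 18 others. In DMSO it read 23.3 and 60.3, against 185.4 to 1513.4 (median 919.50). The DMSO values chose the cultures. The cultures just outside the limit were M+R- replicate 2 at 185.4 and clone 24 replicate 1 at 372.1. UGT2B28 read 15.5 and 38.1 under MDV3100 against 103.6 to 2508.7 (median 497.55), and 18.2 and 36.3 in DMSO against 101.2 to 1949.6 (median 773.40). UGT2B15 read 94.6 and 185.6 under MDV3100 against 629.1 to 2268.5 (median 1465.45), and 74.2 and 109.3 in DMSO against 306.7 to 1719.6 (median 1365.20). All 4 arrays were therefore below every other array of their treatment for each of the 3 genes. The probe sets used for UGT2B28 and UGT2B15 can also bind related transcripts, so their levels and that of UGT2B17 cannot be fully separated. Of the 6 measured genes of glucuronidation, these 3 did not overlap with the others (0.388% of all genes were lower without overlap); since UGT2B17 and whole profiles chose the cultures, nothing is read from that count. UGT8, which glycosylates ceramide, overlapped at 77.1 and 91.0 under MDV3100 and 98.3 and 103.6 in DMSO, against a median of 52.10 over all other arrays.

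**Figure D1:**
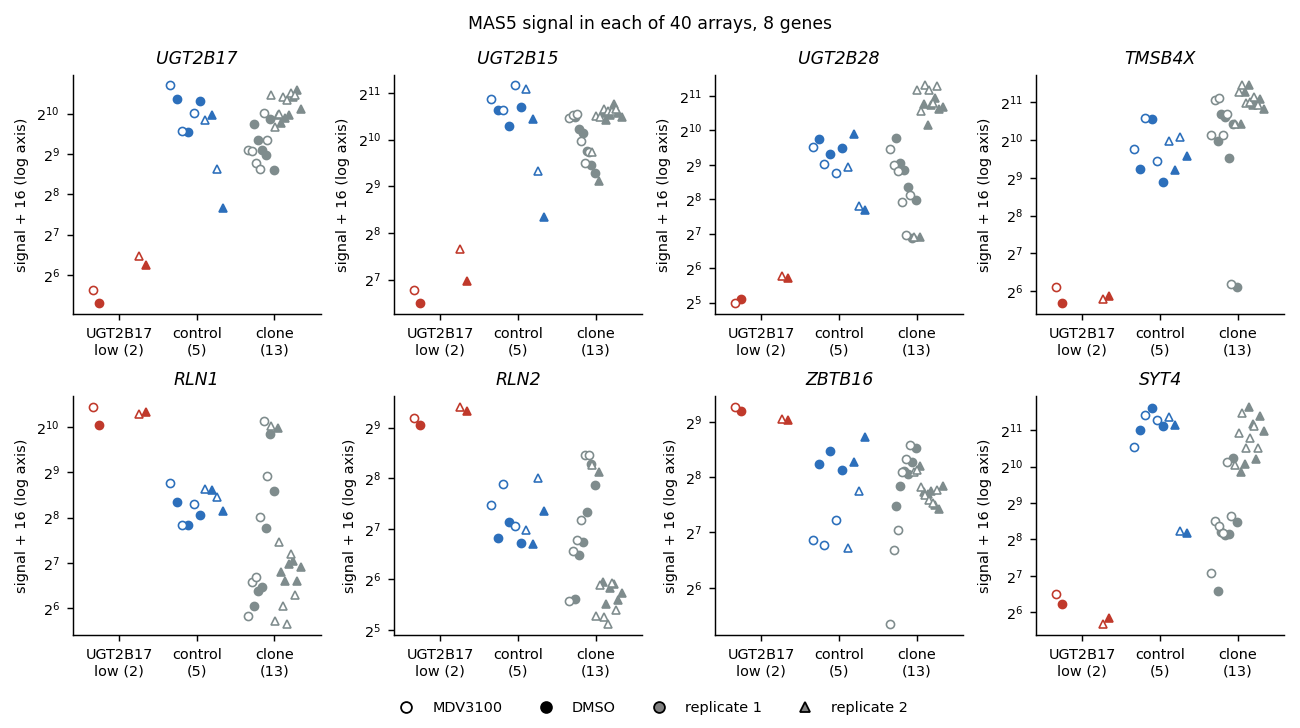
MAS5 signal plus 16 (log axis) in each of 40 arrays for 8 genes, with the 2 UGT2B17-low cultures in red, 5 other control cultures in blue and 13 other clone cultures in grey. Open symbols are MDV3100 and filled ones DMSO, circles replicate 1 and triangles replicate 2. The red points lie below the rest of their treatment for UGT2B17, UGT2B15, UGT2B28, TMSB4X and SYT4, and above it for RLN1, RLN2 and ZBTB16, with clone 24 replicate 1 next to them for TMSB4X at 57.1 and 53.2.

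Across all 11853 genes, 35 (0.295%) were higher in both cultures than in every other culture under both treatments, and 46 (0.388%) were lower. Together these were 81 genes (0.683%). Differences are given within each replicate set, as the clone 1 culture minus the 9 other replicate 1 cultures and the D+R- culture minus the 9 other replicate 2 cultures. Since whole profiles chose the cultures, these counts and the differences below are a description with no test. Over all genes the 2 within-set differences correlated at r = 0.555. This is the r given above for profiles centred within each replicate set, so it adds nothing to the likeness that chose the cultures. At least 2-fold in both sets were 30 genes (0.253%) higher and 58 (0.489%) lower. Of 20 further probe sets for the named genes that lay above the filter, 20 ran the same way. Some genes differed as far or further but overlapped, because at least 1 other array of the same treatment lay as far out. They include FAM110B, at 2.962 and 4.025 in the 2 sets, GUCY1A2, another guanylate cyclase subunit, at 2.859 and 3.692, and ADGRG6, an adhesion receptor, at -4.158 and -5.447, and they were picked after their values were seen.

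**Figure D2:**
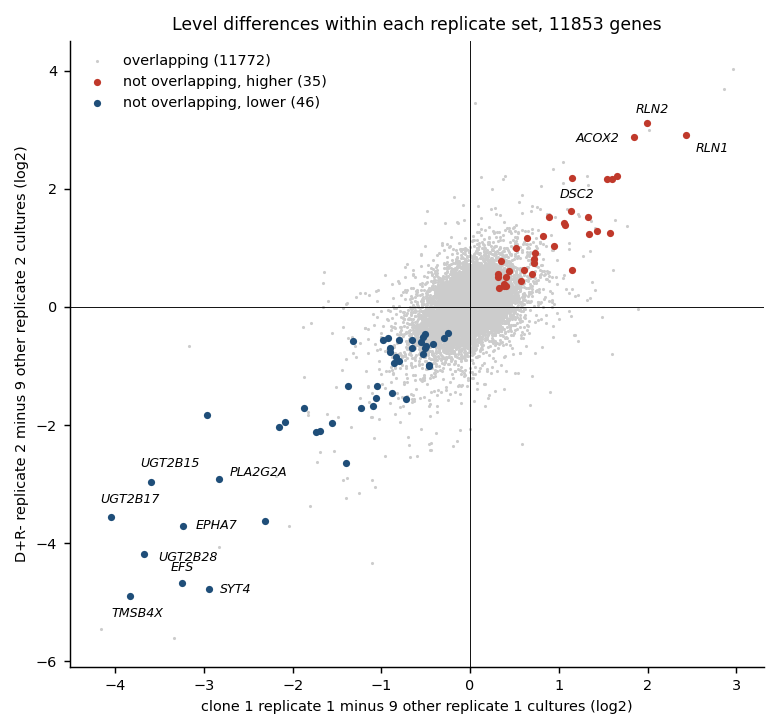
Log2 level difference of each of 11853 genes in the clone 1 culture minus the 9 other replicate 1 cultures (horizontal) and in the D+R- culture minus the 9 other replicate 2 cultures (vertical). The 35 genes that were higher without overlap lie at the upper right, led by RLN1 and RLN2, and the 46 that were lower at the lower left, led by TMSB4X and the UGT2B genes, and some grey genes that overlap lie further out.

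Among the genes that did not overlap, RLN1 had the largest positive difference and RLN2 the next. They are neighbouring genes on chromosome 9 that encode relaxins, peptide hormones that the prostate secretes into seminal fluid. RLN1 read 1379.0 and 1224.7 under MDV3100 against 34.2 to 1097.6 (median 187.75), and 1031.5 and 1269.7 in DMSO against 50.8 to 982.4 (median 159.30). Its difference was 2.44 in the replicate 1 set and 2.90 in the replicate 2 set on the log2 scale. The nearest other cultures were clone 19 replicate 1 under MDV3100, at 1097.6, and clone 1 replicate 2 in DMSO, at 982.4. RLN2 read 569.2 and 667.2 under MDV3100 against 18.5 to 336.1 (median 101.45), and 517.2 and 625.6 in DMSO against 29.6 to 296.0 (median 88.30). Its differences were 1.99 and 3.11. Neither gene overlapped with the others within a treatment. Their probe sets can bind both transcripts, so the share of each gene in these signals is uncertain.

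The sequences before the start sites of the relaxin genes and of UGT2B15 are shown because the relaxins had the largest positive and UGT2B15 one of the largest negative differences among the genes that did not overlap. They are the 250 bases upstream of the start, 5′ to 3′ on the minus strand, from RefSeq (GRCh38.p14). Of 5 genes looked for, 3 matched. UGT2B17 and UGT2B28 had no entry. RLN2 has 2 windows, and the one most like RLN1 is printed. Capitals mark AGAACA, letters that recur in the elements of steroid hormone response, searched on both strands (AGAACA or TGTTCT).
RLN1, chr9:5339877-5340126: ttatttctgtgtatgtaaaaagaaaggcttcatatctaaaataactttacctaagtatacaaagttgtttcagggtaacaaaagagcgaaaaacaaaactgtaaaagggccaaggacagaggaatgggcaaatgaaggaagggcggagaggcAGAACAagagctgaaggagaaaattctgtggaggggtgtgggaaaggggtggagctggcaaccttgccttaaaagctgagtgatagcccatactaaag
RLN2, chr9:5304717-5304966: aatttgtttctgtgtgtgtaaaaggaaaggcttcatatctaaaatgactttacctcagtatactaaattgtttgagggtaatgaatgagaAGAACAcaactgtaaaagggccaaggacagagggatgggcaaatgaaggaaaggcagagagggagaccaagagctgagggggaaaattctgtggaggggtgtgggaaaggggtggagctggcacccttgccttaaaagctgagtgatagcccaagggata
UGT2B15, chr4:68670653-68670902: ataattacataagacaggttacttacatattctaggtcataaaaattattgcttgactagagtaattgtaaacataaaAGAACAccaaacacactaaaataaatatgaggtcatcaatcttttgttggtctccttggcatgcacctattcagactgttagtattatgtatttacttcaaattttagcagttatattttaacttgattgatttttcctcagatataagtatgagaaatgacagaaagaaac
Each held 1 match, which started 98 bases before the start in RLN1, 160 in RLN2 and 172 in UGT2B15. Of 35116 windows of this length in the table, 12.4% held AGAACA on either strand. The RLN1 and RLN2 windows were identical at 221 of 253 aligned positions (87.4%), and the motif lay at different places in them. A match of letters is a description and does not show that a factor binds there.

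The other high genes without overlap had varied roles. ACOX2, a peroxisomal oxidase of bile acid and branched fatty acid breakdown, read 204.0 and 189.9 under MDV3100 against 0.8 to 99.6 (median 9.95), and 157.3 and 138.2 in DMSO against 0.2 to 94.5 (median 11.40). GUCY1B1, a subunit of the nitric oxide receptor guanylate cyclase, came close to overlapping at 153.6 and 157.3 under MDV3100 against a highest other value of 148.6. ZBTB16, a zinc finger repressor that androgen and glucocorticoid induce, read 605.6 and 512.7 under MDV3100 against 24.4 to 369.3 (median 182.10), and 574.8 and 509.9 in DMSO against 154.8 to 410.3 (median 255.60). DSC2, a desmosomal cadherin, read 1605.4 and 1979.5 under MDV3100 against 339.0 to 1147.7, and 1908.2 and 2215.1 in DMSO against 368.8 to 1149.6. For ACOX2, ZBTB16 and DSC2 both cultures lay above every other culture in each treatment. The remaining 6 of the 12 highest without overlap were FRMD3, ZDHHC15, RANBP3L, OASL, TPM2 (a tropomyosin) and CCNO, whose smaller within-set difference was 1.15 to 1.60.

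Some interferon genes were high and others overlapped. IFIT2, which binds viral RNA, read 144.1 and 182.2 under MDV3100 against 44.5 to 91.7, and 165.2 and 170.2 in DMSO against 36.3 to 90.1. TAP1, which carries peptides to MHC class I, read 402.0 and 430.5 under MDV3100 against 113.4 to 337.4, and 407.3 and 346.0 in DMSO against 149.1 to 315.4. OASL, a relative of the oligoadenylate synthetases that is not in the interferon list and was added after its values were seen, read 60.4 and 97.9 against at most 51.8 under MDV3100, and 76.9 and 80.6 against at most 30.6 in DMSO. Of 24 measured genes in the interferon and antigen presentation list, 17 were higher and 7 lower, with IFIT2 and TAP1 the members that did not overlap (all genes: 0.295% higher). IFIT1 and IFI44 overlapped. The list's median difference was 0.163 beside 0.026 for all genes.

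Among the genes that did not overlap, the largest negative difference was that of TMSB4X, which encodes the actin-binding peptide thymosin beta 4. It read 52.6 and 39.9 under MDV3100 against 57.1 to 2768.8 (median 1577.90), and 35.2 and 42.5 in DMSO against 53.2 to 2771.5 (median 1426.85). The lowest of the other cultures, clone 24 replicate 1, was nearly as low at 57.1 and 53.2. Its probe set can bind related transcripts, and no other probe set of the gene was analysed. PLA2G2A, a secreted phospholipase, read 28.9 and 23 under MDV3100 against 42.8 to 1024.5 (median 250.20), and 14.3 and 8.1 in DMSO against 51.7 to 1232.0 (median 162.15). ERVMER34-1, an envelope gene of an endogenous retrovirus, read 3.2 and 8.2 under MDV3100 against 13.9 to 740.2 (median 270.65). In DMSO it read 9.4 and 6.9 against 19.0 to 989.3 (median 385.25). Its lowest other values were those of clone 1 replicate 2, near the filter signal of 12.1, where the order of arrays says little. Neither gene overlapped with the others.

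Several low genes are known from neurons. SYT4, a synaptotagmin of secretory vesicles, read 74.7 and 34.8 under MDV3100 against 118.1 to 2831.2 (median 1440.30), and 59.5 and 41.8 in DMSO against 79.5 to 3194.2 (median 1175.30). NOVA1, a neuronal splicing factor, read 33.6 and 31.7 under MDV3100 against 93.9 to 501.0, and 42.8 and 39.7 in DMSO against 58.4 to 607.2. CAMK2N1, an inhibitor of the kinase CaMKII that androgen represses, read 779.7 and 881.2 under MDV3100 against 1201.8 to 4352.4, and 572.7 and 365.7 in DMSO against 1395.2 to 3819.1. KCNH8, a potassium channel, was close to background at 7.4 and 0.8 under MDV3100 and 7.7 and 3.9 in DMSO. The wider neuroendocrine and neuronal list showed no common direction, with 4 of 10 measured genes higher, 6 lower and SYT4 the member that did not overlap (0.388% of all genes were lower).

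Of the low genes without overlap, 3 belong to Eph signalling, in which membrane-bound ephrins on one cell bind Eph receptors on the next. EPHA7, a receptor, read 1.5 and 5.0 under MDV3100 against 17.6 to 1325.7 (median 314.75), and 11.2 and 8.5 in DMSO against 22.5 to 1151.0 (median 262.45). EFNB2, a ligand, read 123.5 and 132.5 under MDV3100 against 182.4 to 1210.4, and 147.9 and 175.2 in DMSO against 201.4 to 1177.5. EPHB4, its receptor, read 286.5 and 217.8 under MDV3100 against 307.6 to 731.7, and 249.1 and 311.9 in DMSO against 350.1 to 986.0. These 3 genes were picked after their values were seen, and other members of the family overlapped, among them EPHA3 at -2.832 and -4.068 and EPHA6 at 0.742 and 1.162 in the 2 sets. EFS, an adaptor of Src kinases, was near 0 at 1.5 and 5.2 under MDV3100 against 5.9 to 742.8 (median 479.15), and at 0.5 and 1.6 in DMSO against 2.6 to 775.7 (median 435.90). At such signals the order of the lowest arrays says little.

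Transcription factors were also among the low genes. LEF1, which carries Wnt signals to the genome, read 114.5 and 134.9 under MDV3100 against 326.9 to 833.2, and 91.6 and 93.7 in DMSO against 150.7 to 789.0. TWIST1, a factor of mesenchymal cells, read 34.4 and 18.9 under MDV3100 against 55.4 to 504.2, and 41.9 and 24.2 in DMSO against 51.4 to 702.7. Of 8 measured genes in the mesenchymal list, 2 were higher and 6 lower, and TWIST1 did not overlap (0.388% of all genes were lower). The list's median difference was 0.079 in the replicate 1 set and -0.9 in the replicate 2 set, so it had no common direction. AHR, the dioxin receptor, read 11.7 and 15.1 against at least 18.1 under MDV3100, and 17.6 and 14.2 against at least 18.2 in DMSO. LEF1 was picked from the low genes after its values were seen. ETV1, an ETS factor that a chromosomal rearrangement drives in LNCaP cells, was listed at 0.2 and 1.0 under MDV3100 and 0.3 and 0.3 in DMSO. It was not particular to them: 6 other cultures, 5 of replicate 1 and M+R- replicate 2, lay between 0.2 and 84.1, and the remaining 12 at 702.0 or more.

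Androgen-responsive genes did not share a direction in level. KLK4, a secreted protease, read 1052.2 and 1044.5 under MDV3100 against a median of 418.80, and 842.0 and 1062.5 in DMSO against a median of 521.35. TMPRSS2, a membrane protease, read 3451.5 and 3352.5 under MDV3100 against 692.3 to 3192.9, and 3499.3 and 3117.9 in DMSO against 1158.2 to 3145.7. It was above all others under MDV3100 and overlapped in DMSO. KLK3 read 1534.6 and 1567.1 under MDV3100 against a median of 2779.95, and 995.5 and 1274.1 in DMSO against a median of 3513.30. ACP3, prostatic acid phosphatase, read 80.0 and 94.7 under MDV3100 against a median of 244.05, and 104.8 and 107.4 in DMSO against a median of 309.05. Of the 41 measured androgen-induced genes, 27 were higher and 14 lower, with ZBTB16 the member that did not overlap (0.295% of all genes were higher without overlap), and the median difference was 0.475 in the replicate 1 set and -0.032 in the replicate 2 set. Of 19 measured androgen-repressed genes, 13 were lower and 4 did not overlap (0.388% of all genes were lower without overlap), namely CAMK2N1, UGT2B15, UGT2B28 and UGT2B17, the gene that chose the cultures.

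Genes of chromosome 13 were lower as a body. Their median difference was -0.337 in the clone 1 culture and -0.412 in the D+R- culture over 205 genes, with 86.3% and 87.3% of them below the mean of the other cultures of the set. The medians of the other chromosomes lay between -0.089 and 0.304, the highest for chromosome 21 in the D+R- culture, where the clone 1 culture had 0.051. When the 205 genes were cut into 5 blocks of 41 along the chromosome, each block had a negative median in both, between -0.487 and -0.194. Of the 46 genes that were lower without overlap (0.388% of 11853), 8 were among the 205 on chromosome 13: EFNB2, EEF1AKMT1, CARS2, VPS36, MICU2, RNF6, ESD and INTS6-AS1. Ranked by the chromosome's median, centred on 20 cultures, the clone 1 culture was lowest at -0.377 and the D+R- culture next at -0.359. Of the others, 5 were also negative: clone 14 replicate 1 at -0.327, clone 10 replicate 1 at -0.208, clone 9 replicate 1 at -0.203, clone 15 replicate 1 at -0.202 and M+R- replicate 2 at -0.148. The remaining 13 lay at 0.055 or above. Clone 15 replicate 1 and M+R- replicate 2 were also the next best matches of the 2 cultures by whole profile. The other replicate of D+R- was the highest at 0.297, and clone 1 replicate 2 had 0.076. DNA copy number was not measured, and its part in these values was not tested.

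**Figure D3:**
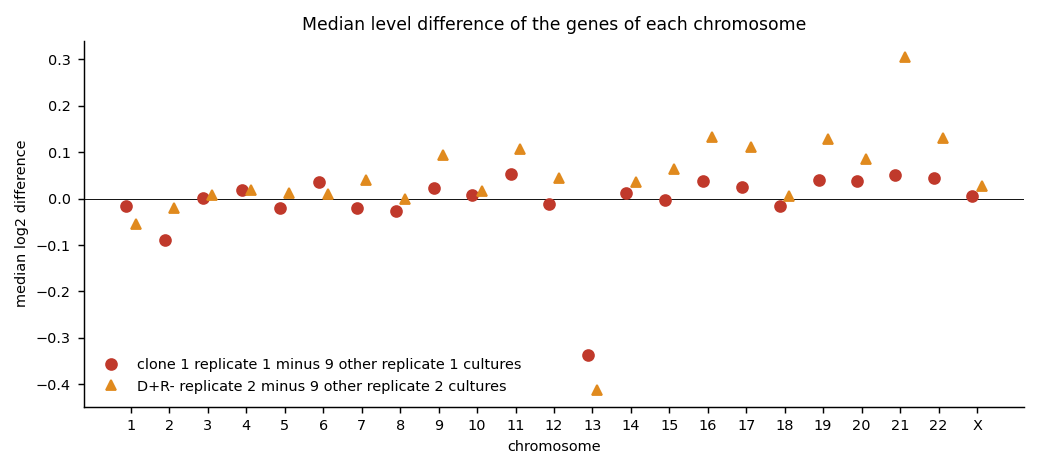
Median log2 level difference of the genes on each chromosome, for the clone 1 culture minus the 9 other replicate 1 cultures (circles) and the D+R- culture minus the 9 other replicate 2 cultures (triangles). Chromosome 13 is the lowest in both, at -0.337 and -0.412.

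The 2 cultures also differed from each other. ID1, an inhibitor of basic helix-loop-helix factors, read 55.4 and 190.3 under MDV3100 and 34.7 and 151.6 in DMSO. IGFBP3, which binds insulin-like growth factors, read 96.7 and 317.7 under MDV3100 and 68.6 and 197.7 in DMSO. PNMA6A ran the other way at 280.1 and 70.4 under MDV3100 and 239.0 and 73.5 in DMSO. For ID1 and PNMA6A the other cultures of the 2 replicate sets differed in the same direction, by -1.14 and 1.48 as replicate 1 minus replicate 2 on the log2 scale. IGFBP3 differed by 0.21 between the other cultures of the sets, the opposite sign to its difference of -1.45 between these 2 cultures.

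The response to MDV3100 was not itself a criterion for choosing the cultures. The profiles that helped to choose them averaged the DMSO and MDV3100 arrays, so the tests of response are not fully independent of that choice. The response was tested as MDV3100 minus DMSO within each culture. For KLK2, SLC45A3, TMPRSS2, FKBP5 and KLK3, 5 genes that androgen induces, the responses lay between -0.28 and 0.62 in the 2 cultures and were all negative in the other control cultures. KLK2, a secreted protease like KLK3, read 2496.1 and 2511.1 under MDV3100, against 2091.4 and 2359.3 in DMSO, a response of 0.25 and 0.09 on the log2 scale. The responses of the 5 other control cultures were -2.31 to -0.85. KLK3 responded by 0.62 and 0.30, against -1.20 to -0.34 in the other control cultures and -1.36 to 0.26 in the 13 other clone cultures. KLK3 was thus the single one of these genes where both cultures lay above all 18 others, as 1.39% of all genes did. The margin was small, with the D+R- culture at 0.30 and clone 19 replicate 1 at 0.26. The KLK3 probe set can also bind related transcripts. SLC45A3, a prostate membrane transporter, responded by 0.17 and -0.06 against -2.11 to -1.20 in the other control cultures. TMPRSS2 responded by -0.02 and 0.10 against -1.89 to -0.74, and FKBP5, a chaperone of steroid receptors, by -0.15 and -0.28 against -0.94 to -0.51. The groups did not overlap for any of these 5 genes when set against the other control cultures. Of all genes, 9.16% had both cultures above all 5 other control cultures. SLC45A3 was named because its difference from those cultures was among the largest of its list.

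The difference in these responses from the other control cultures was 1.91 ± 0.62 for KLK2, 1.12 ± 0.38 for KLK3, 1.68 ± 0.46 for SLC45A3, 1.28 ± 0.33 for TMPRSS2 and 0.49 ± 0.19 for FKBP5 (log2 ± SE, 2 against 5 cultures). None passed the test over all genes, with limma adjusted p of 0.159, 0.168, 0.108, 0.100 and 0.214. The label of the D+R- culture is that of a sensitive control. Its counterpart D+R- replicate 1 responded by -2.30 for KLK2, -1.20 for KLK3, -1.89 for TMPRSS2 and -1.92 for SLC45A3, while clone 1 replicate 2 responded by -0.23, 0.06, 0.00 and -0.03. Against the 13 other clone cultures, where the limma adjusted p was 0.607 for KLK3 and 0.681 for KLK2, the responses overlapped except for KLK3. Clones 9, 10 and 14 of replicate 1 had KLK2 responses of -2.60 to -2.20, near those of the other control cultures.

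**Figure D4:**
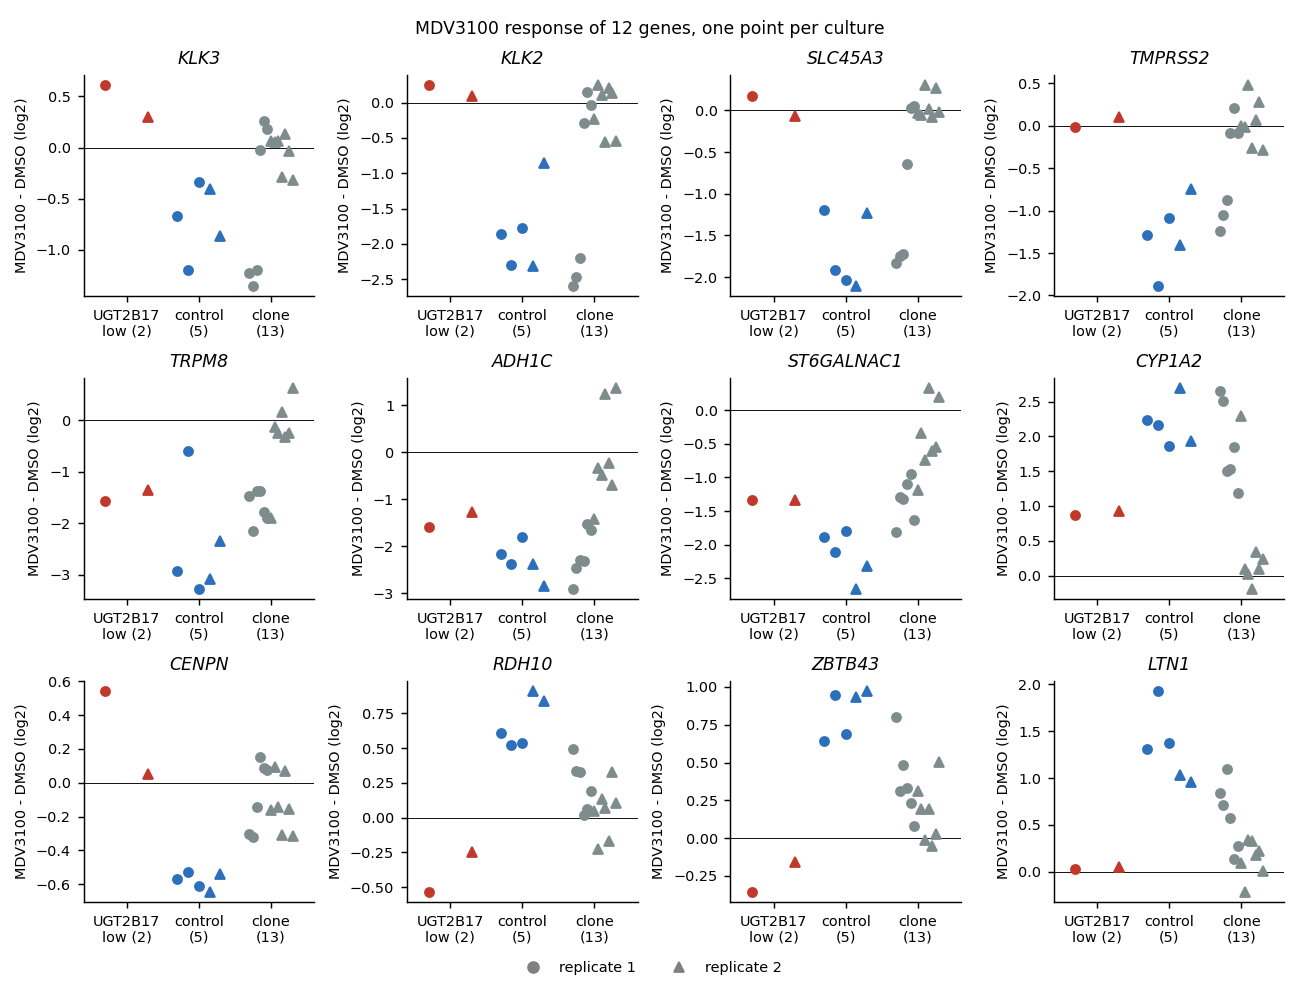
Response to MDV3100 (MDV3100 minus DMSO, log2) of 12 genes in each culture, with the UGT2B17-low cultures in red, other control cultures in blue and other clone cultures in grey, circles for replicate 1 and triangles for replicate 2. For KLK3, KLK2, SLC45A3 and TMPRSS2 the red points lie near or above 0 and the blue ones between -2.31 and -0.34, while TRPM8, ADH1C and ST6GALNAC1 lie between -1.59 and -1.28 in the red cultures.

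The androgen-induced list as a whole was also less negative. Its median response over 41 of 51 genes was -0.020 in the clone 1 culture and -0.170 in the D+R- culture, against -0.680 to -0.455 in the 5 other control cultures. The other clone cultures ranged from -0.424 to 0.017 in replicate 1 and from -0.130 to 0.140 in replicate 2, and over all genes the 2 cultures had medians of 0.027 and 0.017. Both cultures responded above all 5 other control cultures for 18 of the 41 genes and below all of them for 2, where 9.16% and 7.9% of all genes did so. At an unadjusted p under 0.05, 13 members were above and 1 below, against 9.75% and 7.92% of all genes, and 1, CENPN, passed the adjusted test, where 0.0422% of all genes did in either direction. PMEPA1, a feedback inhibitor of TGF-beta signals, responded by 0.47 and 0.00 against -1.31 to -0.79 (adjusted p = 0.0687, limma). The androgen-repressed list differed little, with medians of 0.106 and 0.176 against 0.046 to 0.326 in the other control cultures.

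**Figure D5:**
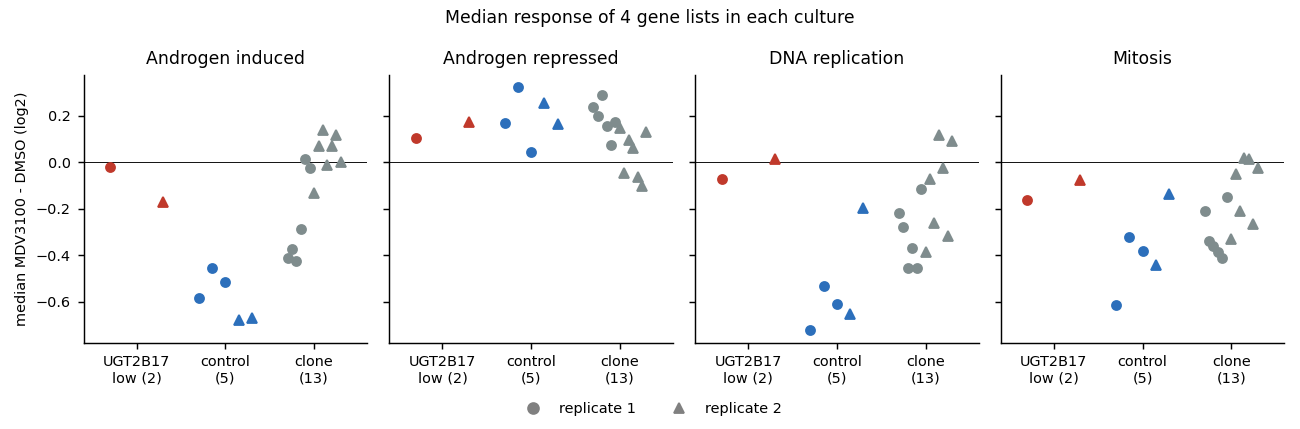
Median response to MDV3100 (log2) of 4 gene lists in each culture, grouped as UGT2B17-low (red), other control (blue) and other clone (grey). For the androgen-induced list the red cultures are at -0.020 and -0.170 and the blue ones at -0.680 to -0.455, and for DNA replication at -0.073 and 0.014 and at -0.723 to -0.196.

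Some genes responded by over 2-fold in both cultures. ADH1C, an alcohol and retinol dehydrogenase, read 12.7 and 13.2 under MDV3100 against 70.6 and 54.9 in DMSO, a response of -1.59 and -1.28. ST6GALNAC1, which makes the sialyl-Tn glycan and is induced by androgen, read 12.2 and 6.2 under MDV3100 against 55.5 and 39.8 in DMSO, a response of -1.34 and -1.33. TRPM8, a cold-gated calcium channel of the prostate, read 30.2 and 55.2 under MDV3100 against 121.7 and 166.5 in DMSO, a response of -1.58 and -1.36. These 3 were the only genes of 11853 that moved at least 2-fold the same way in both cultures. WWTR1, the Hippo effector TAZ, responded by -0.82 and -1.0, and CYP1A2, a xenobiotic oxidase, by 0.87 and 0.93. In the other control cultures the responses went further for ADH1C at -2.84 to -1.79, ST6GALNAC1 at -2.66 to -1.80, WWTR1 at -2.30 to -1.60 and CYP1A2 at 1.86 to 2.70, with no overlap. How far a response can go below 0 on the log2(signal + 16) scale depends on the DMSO signal, and that was lower in the 2 cultures. WWTR1 read 29.2 and 38.2 in DMSO in them, against 39.8 to 121.3 in the other control cultures, and ST6GALNAC1 55.5 and 39.8 against 73.3 to 173.9. A fall to a signal of 0 would not have reached the weakest of those responses for WWTR1 in the clone 1 culture. The same held, by a very small margin, for ST6GALNAC1 in the D+R- culture. For each of these 2 genes that culture could not overlap because of its DMSO level, while the other culture was not bound in this way. TRPM8 overlapped at -3.28 to -0.60. The limma adjusted p of these 5 differences was 0.232 to 0.562, and against 0 the adjusted p of the response itself was 0.303 for ST6GALNAC1, 0.350 for TRPM8 and 0.398 for ADH1C.

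The D+R- culture had 16 genes with a response of at least 2-fold and the clone 1 culture 97, against 81 to 585 in the other control cultures and 12 to 585 (median 78.5) in all 18 others, so both lay within the range of the other cultures. The responses of the 2 cultures correlated with each other at r = 0.344 over 11853 genes, and each correlated best with clone 15 replicate 1, at r = 0.633 and 0.373. Of 11852 genes tested, UGT2B17 being left out, limma called 0 (0%) for the response of the 2 cultures against 0, with 1348 (11.4%; 7.13% positive and 4.24% negative) at an unadjusted p under 0.05. It also called 0 (0%) against the 18 others, with 1147 at that p (9.68%; 6.34% positive and 3.33% negative). Both cultures lay above all 18 others for 1.39% of genes and below all for 0.945%. Against the 13 other clone cultures limma called 0 (0%), with 960 at that p (8.1%; 5.4% positive and 2.7% negative). Both cultures lay above all 13 for 2.41% of genes and below all for 1.53%.

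Against the 5 other control cultures limma called 5 genes (0.0422%), of which 1 responded higher and 4 lower, with 2095 (17.7%) at an unadjusted p under 0.05. Both cultures lay outside the range of these 5 for 17.1% of genes. CENPN, a protein that marks centromeric chromatin, read 1567.3 and 1501.4 under MDV3100 against 1068.7 and 1447.0 in DMSO, a response of 0.55 and 0.05. The other control cultures responded by -0.65 to -0.53 (difference 0.89 ± 0.16 SE, limma adjusted p = 0.0313). RDH10, which oxidises retinol to retinal, read 439.2 and 479.7 under MDV3100 against 643.5 and 573.7 in DMSO, a response of -0.53 and -0.25 against 0.52 to 0.91 in the other control cultures (difference -1.08 ± 0.18, limma adjusted p = 0.0288). ZBTB43, a zinc finger protein, responded by -0.36 and -0.16 against 0.64 to 0.98 (difference -1.09 ± 0.19, limma adjusted p = 0.0288). LTN1, a ubiquitin ligase that clears stalled nascent chains, responded by 0.03 and 0.05 against 0.96 to 1.93 (difference -1.24 ± 0.22, limma adjusted p = 0.0313). LOC441081 responded by -0.95 and -0.46 against 0.01 to 1.43 (difference -1.48 ± 0.25, limma adjusted p = 0.0288). For each of these 5 genes the 2 cultures lay outside the range of the other control cultures. Against the 13 other clone cultures, LTN1 lay within their range of -0.22 to 1.10. The D+R- culture lay within their range of -0.32 to 0.15 for CENPN, and the clone 1 culture above it. For RDH10, ZBTB43 and LOC441081 both cultures lay below all 13, as 1.53% of all genes did. The number called moved from 5 to 99 without M+R- replicate 1, 44 without M+R- replicate 2, 24 without the D+R- culture, 2 without D+E- replicate 1, 1 without D+R- replicate 1 and 0 without D+E- replicate 2 or without the clone 1 culture. It was 9 without clone 9 replicate 1.

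DNA replication genes had responses closer to 0 than in the other control cultures, while mitosis genes overlapped. The median response of 24 DNA replication genes was -0.073 and 0.014, against -0.723 to -0.196 in the other control cultures. The other clone cultures ranged from -0.456 to -0.115 in replicate 1 and from -0.387 to 0.118 in replicate 2. Medians like those of the 2 cultures thus also occurred among other clone cultures. Both cultures responded above all other control cultures for 14 of the 24 and below all for 0, where 9.16% and 7.9% of all genes did so. MCM5, a subunit of the replicative helicase, responded by 0.15 and 0.02 against -1.10 to -0.64 (limma adjusted p = 0.0687). CDC45, which activates that helicase, responded by 0.03 and 0.02 against -0.83 to -0.58 (limma adjusted p = 0.107). The median of 24 mitosis genes was -0.161 and -0.075, against -0.615 to -0.137 in the other control cultures, so the clone 1 culture lay within their range. Of these genes, 6 lay above all other control cultures and 0 below. PLK1, a mitotic kinase, responded by 0.25 and 0.25 against -1.32 to -0.26 (limma adjusted p = 0.0835). None of the 48 passed the adjusted test. The share of cells in cycle and the amount of RNA per cell cannot be told apart in these bulk samples.

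Other genes responded alike in the 2 cultures without passing the test. BCKDHA, a subunit of the complex that breaks down branched-chain amino acids, responded by 0.57 and 0.82, SUB1, a transcription coactivator, by 0.64 and 0.50, and ANAPC2, a subunit of the anaphase-promoting complex, by 0.87 and 0.45. GCNT2, a glycosyltransferase of the I blood group antigen, responded by -0.72 and -0.75, and MED1, the Mediator subunit that nuclear receptors bind, by -0.62 and -0.33. For these 5 genes both cultures lay outside the range of all 18 others, as 2.34% of all genes did (3.94% against the 13 clone cultures). The limma adjusted p of these responses against 0 was 0.114 to 0.272. These genes were picked from the 5 with the smallest p in each direction, so nothing is read from their lying outside the range. The responses of the rest, FAHD2CP, RFX6, CARMIL1, RNF122 and TMTC2, are not given here. Of the 3 low UGT2B genes, UGT2B15 responded by 0.29 and 0.69 and UGT2B28 by -0.12 and 0.05, and UGT2B17 by 0.32 and 0.23, each overlapping with the other cultures.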

How the data were processed

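Expression was measured on 40 Affymetrix arrays. The authors deposited linear signal intensity for each probe set. The submitters' processing notes name MAS5, with a version not given in the sources used here. The trimmed mean intensity of every array was 150, so no further scaling was done. All columns were mapped to samples, with 0 left over. Here, values became log2(signal + 16), which understates changes at low signal. Probe sets were kept where the mean log2 reached the median of all probe sets (a signal of 12.1) and the platform annotation gives 1 gene, and the brightest per gene gave 11853 genes. The members and gene lists were chosen with earlier results of these data known.

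Levels were compared within each treatment and replicate set, with no test. Responses were MDV3100 minus DMSO within a culture, in which the title's replicate number pairs the arrays. The deviations of the 20 pairs from their treatment means correlated at r = 0.572 to 0.872. They were tested with limma 3.58.1 (R 4.3.3) with replicate set as a term, Benjamini-Hochberg adjustment over 11852 genes and a threshold of 0.05, after a check on simulated data. Named genes are, among those that did not overlap, the 12 highest and 12 lowest by the smaller within-set difference, called responses or else the 5 with the smallest p per direction, a fixed set of 19 (4 of them not analysed here), and up to 4 per list. The precision is limited by the number of arrays. Alternatives were the pseudocount, filter, quantile normalization, probe set rule, set term, pairing, variance trend, each set alone and each culture left out.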

Additional observations from a re-analysis of the deposited data

Results flagged for a closer look

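The responses of 5 genes differed between the UGT2B17-low cultures and the 5 other control cultures in a direct test of the difference (limma, adjusted p under 0.05, 5 of 11852 genes). The difference was 0.89 for CENPN, -1.48 for LOC441081, -1.24 for LTN1, -1.09 for ZBTB43 and -1.08 for RDH10 on the log2 scale. Each had the same direction under all 30 alternatives, with a range of 0.65 to 1.12 for CENPN, -2.09 to -0.75 for LOC441081, -1.51 to -0.83 for LTN1, -1.29 to -0.94 for ZBTB43 and -1.24 to -0.90 for RDH10, but each missed the threshold under 5 to 9 of them.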

How the results depend on the processing

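The 24 genes named for their levels had the same direction under all 312 combinations of gene and alternative. The number higher without overlap moved from 35 to 53 with the mean of probe sets, 128 in DMSO alone, 215 under MDV3100 alone, 248 against the other control cultures, 76 against the other clone cultures, 421 in set 1, 459 in set 2 and 111 to 174 with 1 of the 2 cultures left out. The number lower moved from 46 to 140, 192, 248, 83, 375, 373 and 121 to 144 under the same alternatives, the mean of probe sets excepted. All but that one compare fewer arrays. The r between the profiles was 0.555 when centred within sets, 0.744 with a pseudocount of 64 and 0.701 with no filter.

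The 5 calls against the other control cultures became 24 with a pseudocount of 64, 37 after quantile normalization, 8 with the mean of probe sets, 23 with a variance trend, 0 in set 2 alone and 0 to 99 with 1 culture left out. Without the pairing of arrays (no replicate block) limma called 0 in all 4 comparisons, with 261 for the response itself, 144 against the 18 others, 377 against the other control cultures and 145 against the other clone cultures at an unadjusted p under 0.05. The count against 0 was 1 with a pseudocount of 1, a pseudocount of 64 or a variance trend, and 0 to 2 with 1 culture left out. Against the 18 others it was 0 to 1 with 1 culture left out, and against the other clone cultures 1 with a pseudocount of 1 and 0 to 1 with 1 left out. Every nonzero count of these 3 comparisons with 1 culture left out came without the D+R- culture. Small differences from the other control cultures changed sign for TMTC2 (0.009 without D+R- replicate 1, 0.067 without the D+R- culture, 0.102 in set 2), for UGT2B15 (0.008 with a pseudocount of 1 and after quantile normalization, 0.134 without the clone 1 culture, 0.080 without M+R- replicate 2) and for ETV1 (-0.020 after quantile normalization, -0.006 and -0.073 without D+E- replicate 1 and 2, -0.014 without the D+R- culture, -0.036 in set 2). With 1 culture left out these ranged from -0.208 to 0.067 for TMTC2, -0.216 to 0.134 for UGT2B15 and -0.073 to 0.149 for ETV1. None was called, and the cause was not tested. The other 46 genes kept their direction.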
